A study of Mus musculus with 2 samples.

Results

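The GTPases of immunity-associated proteins (GIMAPs) were followed in Th17 cells, the CD4 T cells that secrete IL-17, cultured with or without deletion of the tyrosine kinase FAK (focal adhesion kinase). The family comprised the 8 genes *Gimap1*, *Gimap3*, *Gimap4*, *Gimap5*, *Gimap6*, *Gimap7*, *Gimap8* and *Gimap9*, taken by gene symbol from count tables of 23282 rows. No other symbol in the tables begins with Gimap. All 8 had reads in both libraries and passed the expression minimum, so no member was lost to a filter on low values.

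Naïve CD4 T cells from the spleens of *Fak* fl/fl mice were transduced with a control retrovirus or with RV-Cre, a retrovirus that expresses Cre recombinase, and the GFP+ transduced cells were sorted for RNA-seq. Both cultures were stimulated with plate-bound anti-CD3ε at 10 μg/ml and soluble anti-CD28 at 5 μg/ml and were kept for 3 days with IL-6 (50 ng/ml), TGFβ1 (1 ng/ml), TNF-alpha (1 ng/ml), IL-1beta (2 ng/ml) and antibodies to IFNgamma and IL-4 (5 μg/ml each). The floxed *Fak* alleles, the stimulation and the polarizing cytokines were therefore shared, and the cells differed in the vector. The genotype label of the control reads WT, but the title describes floxed cells given the control vector, and the title was followed. Loss of *Fak* came together with expression of Cre, and the effects of the pair cannot be told apart in these libraries. There was 1 library per condition, so the differences below have no replicates behind them and carry no p-value. *Ptk2*, which encodes FAK, had 110 reads in the control and 31 with RV-Cre, a ratio of 0.318 (95% interval 0.206 to 0.477).

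GIMAPs are GTP-binding proteins of lymphocytes and other immune cells, related to the plant protein AIG1, and their genes sit side by side in mammalian genomes. Several are anchored in membranes inside the cell. They are best known from the survival of resting T cells: lymphocytes that lack GIMAP1 or GIMAP5 are lost from the periphery, and rats with a broken *Gimap5* are lymphopenic.

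In mice the 8 genes lie on chromosome 6. By RefSeq on GRCm38.p6, the patch release of the mm10 build named in the submitters' processing notes, they run from chr6:48647186 to chr6:48770851, over 124 kb, in the order *Gimap8*, *Gimap9*, *Gimap4*, *Gimap6*, *Gimap7*, *Gimap1*, *Gimap5* and *Gimap3*. *Gimap6* and *Gimap3* lie on the minus strand and the other 6 on the plus strand. The upstream sequence of 5 of them is shown because their ratios mark the ends of the family: *Gimap3* and *Gimap6* had the largest ratios, *Gimap9* and *Gimap7* the smallest, and *Gimap5* is the close paralog of *Gimap3*. Each run is the 250 bases before the RefSeq transcript start (GRCm38.p6), 5′ to 3′ on the strand of the gene, with capitals for matches to the motifs named in the next paragraph. The windows are chr6:48770852-48771101 (*Gimap3*, minus strand), chr6:48745947-48746196 (*Gimap5*, plus strand), chr6:48708245-48708494 (*Gimap6*, minus strand), chr6:48675885-48676134 (*Gimap9*, plus strand) and chr6:48718371-48718620 (*Gimap7*, plus strand). The *Gimap9* window ends inside the gene as RefSeq draws it, because that gene has more than 1 start.
Gimap3: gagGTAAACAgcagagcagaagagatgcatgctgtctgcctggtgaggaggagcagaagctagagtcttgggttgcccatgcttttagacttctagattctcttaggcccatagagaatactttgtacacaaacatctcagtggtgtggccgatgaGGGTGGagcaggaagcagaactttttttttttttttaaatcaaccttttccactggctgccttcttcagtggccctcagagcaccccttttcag
Gimap5: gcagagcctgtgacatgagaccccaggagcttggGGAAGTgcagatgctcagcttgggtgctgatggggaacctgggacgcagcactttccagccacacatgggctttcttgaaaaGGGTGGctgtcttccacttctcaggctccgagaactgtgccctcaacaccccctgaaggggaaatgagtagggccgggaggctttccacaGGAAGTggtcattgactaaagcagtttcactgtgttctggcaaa
Gimap6: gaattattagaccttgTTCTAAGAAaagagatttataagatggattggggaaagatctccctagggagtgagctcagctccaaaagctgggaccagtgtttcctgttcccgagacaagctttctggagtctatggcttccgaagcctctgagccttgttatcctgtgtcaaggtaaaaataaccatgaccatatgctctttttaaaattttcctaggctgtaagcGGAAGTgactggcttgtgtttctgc
Gimap9: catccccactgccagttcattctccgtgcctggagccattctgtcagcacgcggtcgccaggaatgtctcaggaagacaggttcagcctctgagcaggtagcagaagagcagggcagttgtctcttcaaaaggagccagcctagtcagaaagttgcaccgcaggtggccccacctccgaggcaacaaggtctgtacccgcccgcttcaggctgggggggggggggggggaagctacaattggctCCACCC
Gimap7: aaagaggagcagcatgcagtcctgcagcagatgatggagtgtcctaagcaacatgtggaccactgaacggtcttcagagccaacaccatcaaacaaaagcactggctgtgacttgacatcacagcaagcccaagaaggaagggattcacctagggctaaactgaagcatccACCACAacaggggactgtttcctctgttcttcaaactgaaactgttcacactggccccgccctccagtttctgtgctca

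Motifs of T cell transcription factors were looked for on both strands: CCACCC (KLF), ACCACA (RUNX), GGAAGT (ETS), GTAAACA (FOX), CTTTGAA (TCF), TTCNNNGAA (STAT) and CAGCTG (E-box). A match on the other strand reads as the reverse complement in the runs above, so a KLF match there appears as GGGTGG. The KLF letters were in the windows of *Gimap8*, *Gimap9*, *Gimap4*, *Gimap5* and *Gimap3*, 5 of the 9 GIMAP windows (*Gimap8* has more than 1), and in 28.1% of all 32851 mouse promoters of that length. RUNX letters were in 3 GIMAP windows (*Gimap4*, *Gimap7* and *Gimap1*) and in 4614 of the 32851 promoters. ETS letters were in 2 (*Gimap6* and, at 2 places, *Gimap5*) against 19.7%, and STAT letters in 2 (*Gimap8* and *Gimap6*) against 7.02%. The FOX letters were in the *Gimap3* window alone among the 9, and in 3.17% of all promoters. The TCF and E-box letters were in none of the 9, and in 4.46% and 13.0% of all promoters. *Gimap3* and *Gimap9*, which stood near opposite ends of the ratios, both held a KLF match. The STAT matches (*Gimap8* and *Gimap6*) and the FOX match (*Gimap3*) were in members with ratios over 2, which 5 of the 8 members had. RUNX and ETS matches were in members on both sides of a ratio of 2. These are matches of letters and not measured binding.

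The family as a whole was more abundant in the RV-Cre library. The 8 genes had 10378 reads of 13799264 in the control and 22331 of 12305010 in the RV-Cre library, or 752 and 1815 counts-per-million (CPM). The ribosomal RNA precursor row *Rn45s* took 8.50% of the control reads and 14.6% of the RV-Cre reads. After scaling the libraries with trimmed mean of M values (TMM) factors the ratio of RV-Cre to control was 2.43 (95% interval 2.37 to 2.49), a log2 ratio of 1.28. The intervals here and below are exact Clopper-Pearson intervals on how the reads were split between the libraries, and they cover counting error only. In bulk RNA, more cells of a type and more RNA per cell cannot be told apart.

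All 8 members had a higher scaled count in the RV-Cre library, although *Gimap5*, *Gimap7* and *Gimap9* were lower per read of the CD3 chain genes (log2 ratios of -0.33, -0.74 and -0.74), a comparison that was added after seeing the data and is taken up below. A ratio of at least 2 was reached by 5 of the 8 members (1, *Gimap3*, when scaled to CD3 chain genes), and one of 0.5 or less by none. Among all 12112 genes past the minimum (log2 value of 4 or more in either library), 14.2% had a ratio of 2 or more and 12.3% a ratio of 0.5 or less. Many of these have few reads. In the better-read set of 6276 genes, those with mean log2 values of 8 or more, the shares were 3.74% and 7.60%. This set holds every member except *Gimap7*. The median log2 ratio of the members was 1.14, beside -0.01 for all genes past the minimum and -0.07 for the 6276.

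*Gimap3* had the largest ratio. GIMAP3 is an intracellular membrane GTPase and the nearest relative of GIMAP5. It had 758 reads (54.9 CPM) in the control and 3166 (257 CPM) with RV-Cre, a ratio of 4.71 (4.35 to 5.11), or 2.24 on the log2 scale. In the set of 6276 genes, 15 had a ratio at least as large, *Gimap3* included.

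*Gimap6* followed. GIMAP6 binds the autophagy protein GABARAPL2. It had 768 reads (55.7 CPM) in the control and 2470 (201 CPM) with RV-Cre, a ratio of 3.63 (3.35 to 3.94). In the control, *Gimap3* and *Gimap6* had nearly equal counts, and in the RV-Cre library *Gimap3* was ahead. Their ratios differed by a factor of 1.30 (1.16 to 1.46).

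Then came *Gimap4*, *Gimap1* and *Gimap8*. *Gimap4*, which encodes a GTPase linked to T cell death and cytokine release, was the most abundant member in both libraries, with 4584 reads (332 CPM) in the control and 10213 (830 CPM) with RV-Cre, a ratio of 2.51 (2.43 to 2.60). *Gimap1* is needed to keep mature B and T cells. It had 909 reads (65.9 CPM) and 1801 (146 CPM), a ratio of 2.24 (2.06 to 2.42). *Gimap8* encodes the longest protein of the family, with 3 GTPase domains in tandem. Its 810 reads (58.7 CPM) and 1568 (127 CPM) gave a ratio of 2.18 (2.01 to 2.38). For *Gimap3*, *Gimap6*, *Gimap4*, *Gimap1* and *Gimap8* the whole 95% interval lay above 2. With 99% intervals this held for 4 of them, all but *Gimap8*.

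The other 3 stayed under a ratio of 2. *Gimap5*, whose product lies on lysosomes and related membranes and is needed for the survival of naïve T cells, had 550 reads (39.9 CPM) in the control and 832 (67.6 CPM) with RV-Cre, a ratio of 1.71 (1.53 to 1.90). *Gimap9* had 1878 reads (136 CPM) and 2143 (174 CPM), a ratio of 1.29 (1.21 to 1.37). *Gimap7* had the fewest reads, 121 (8.77 CPM) and 138 (11.2 CPM), a ratio of 1.29 (1.00 to 1.66). A ratio as large as that of *Gimap9* was met by 21.5% of the 6276 genes, and one as large as that of *Gimap7* by 31.6% of all 12112, so neither stood out from the background. At the depth of *Gimap7*, a 99% interval ran from 0.927 to 1.79 and no longer excluded a ratio of 1.

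**Figure D1:**
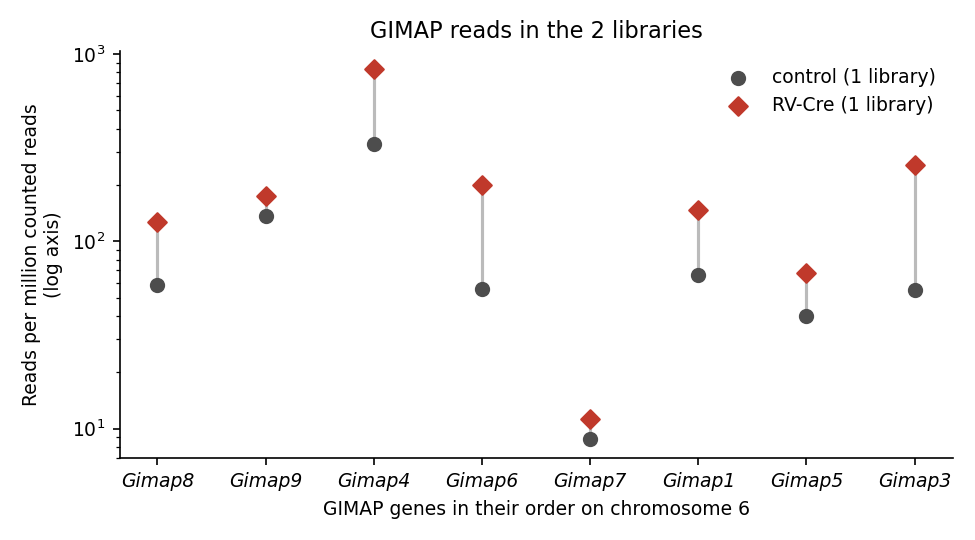
CPM (log axis) of each GIMAP gene in the control library (circles) and the RV-Cre library (diamonds), in chromosomal order. Each point is 1 library with no replicate. The gap is widest for *Gimap3* (54.9 and 257 CPM) and narrow for *Gimap9* (136 and 174) and *Gimap7* (8.77 and 11.2). Per read of the CD3 chain genes, *Gimap5*, *Gimap7* and *Gimap9* were lower in the RV-Cre library.

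**Figure D2:**
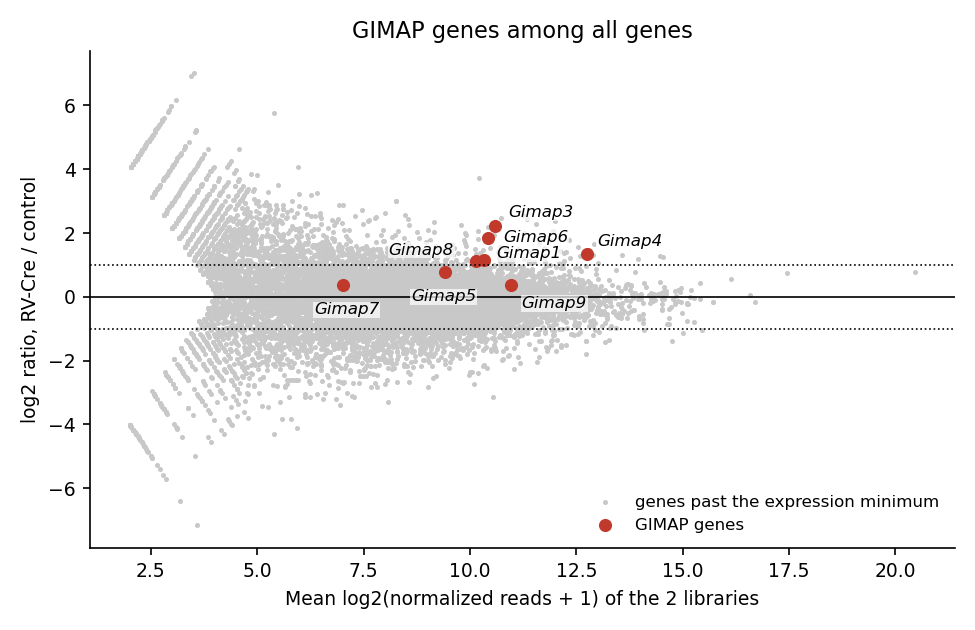
Log2 ratio of RV-Cre to control (TMM scaling) against the mean log2(normalized reads + 1) of the 2 libraries for the 12112 genes past the minimum (grey), with the 8 GIMAP genes in red. The dotted lines mark a 2-fold ratio. *Gimap3*, *Gimap6*, *Gimap4*, *Gimap1* and *Gimap8* lie above the upper line, and *Gimap5*, *Gimap9* and *Gimap7* between it and 0. Scaling to CD3 chain genes moves every point down by 1.10, which places these last 3 below 0.

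The members moved by unequal amounts. Their log2 ratios ran from 0.36 to 2.24, a span of 1.87. Ratios of 2 members within the same pair of libraries do not depend on the scaling. Of the 28 pairs of members, 26 had an interval for the ratio of ratios that excluded 1. The exceptions were *Gimap1* against *Gimap8* (1.02, 0.909 to 1.15) and *Gimap9* against *Gimap7* (1.00, 0.771 to 1.30). In order of ratio, *Gimap3* exceeded *Gimap6*, *Gimap6* exceeded *Gimap4* by a factor of 1.44 (1.32 to 1.58), *Gimap4* exceeded *Gimap1* by 1.12 (1.03 to 1.23), *Gimap8* exceeded *Gimap5* by 1.28 (1.11 to 1.47) and *Gimap5* exceeded *Gimap9* by 1.33 (lower bound 1.17). These intervals leave out the spread between cultures, which 1 library per condition cannot give.

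The make-up of the family's reads changed accordingly. *Gimap3* went from 7.30% of the GIMAP reads in the control to 14.2% in the RV-Cre library, with odds against the other members 2.10 times as high (1.93 to 2.28). *Gimap6* went from 7.40% to 11.1% (odds ratio 1.56, 1.43 to 1.70). *Gimap9* went the other way, from 18.1% to 9.60% (0.480, 0.449 to 0.514), although its own scaled count was not lower. *Gimap4* held 44.2% and 45.7% (1.07, 1.02 to 1.12), so it kept its place as the main member. *Gimap1* (8.76% and 8.07%), *Gimap8* (7.80% and 7.02%), *Gimap5* (5.30% and 3.73%) and *Gimap7* (1.17% and 0.618%) had smaller shares in the RV-Cre library. By reads, *Gimap3* moved from rank 6 to rank 2 and *Gimap9* from rank 2 to rank 4. The leading pair was *Gimap4* and *Gimap9* in the control, with 62.3% of the reads, and *Gimap4* and *Gimap3* in the RV-Cre library, with 59.9%. There were 2.44 *Gimap4* reads for each *Gimap9* read in the control and 4.77 in the RV-Cre library.

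**Figure D3:**
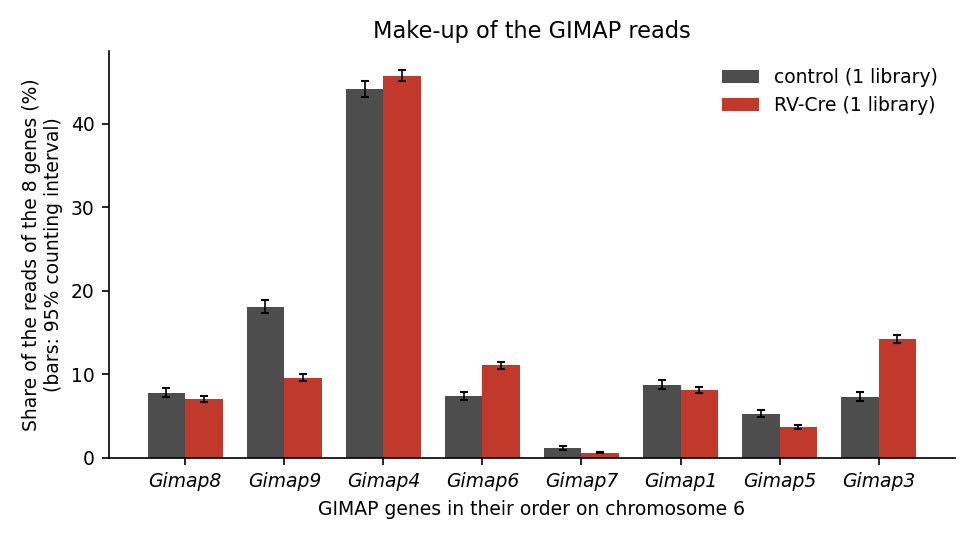
Share of the reads of the 8 GIMAP genes held by each gene (%), control in grey and RV-Cre in red, 1 library each. Bars on the columns are exact 95% intervals for counting error. *Gimap3* (7.30% and 14.2%) and *Gimap6* (7.40% and 11.1%) hold more in the RV-Cre library, *Gimap9* (18.1% and 9.60%) holds less, and *Gimap4* holds 44.2% and 45.7%.

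Levels of different genes were compared per kilobase of transcript (CPM per kb, GENCODE M21 transcript with the longest coding sequence). In the control, *Gimap4* led with 184, followed by *Gimap9* (98.3), *Gimap1* (44.1), *Gimap6* (34.9), *Gimap3* (25.6), *Gimap5* (20.4), *Gimap8* (18.7) and *Gimap7* (6.91). In the RV-Cre library *Gimap4* reached 460, *Gimap6* and *Gimap9* were level at 126, and *Gimap3* stood at 120 and *Gimap1* at 98.0, ahead of *Gimap8* (40.6), *Gimap5* (34.6) and *Gimap7* (8.84). The labels name a Lexogen Quant-Seq kit. If its reads came from transcript ends alone, counts and not counts per kilobase would be the measure of level, and on both scales *Gimap4* was first and *Gimap7* last in both libraries.

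*Gimap3* and *Gimap5* make the sharpest contrast, because their proteins are the most alike. The translated products of their transcripts have 301 and 308 residues and were identical at 82.7% of 301 aligned positions. The next closest pair, *Gimap7* and *Gimap9* (293 and 291 residues), was identical at 54.2% of 288 positions, and the remaining pairs at 28.7% to 45.7%. The alike pair *Gimap3* and *Gimap5* differed in ratio by a factor of 2.76 (2.41 to 3.16), with 1.38 *Gimap3* reads per *Gimap5* read in the control and 3.81 in the RV-Cre library. The pair *Gimap7* and *Gimap9*, in contrast, had nearly the same ratio, but the interval of their difference (0.771 to 1.30) is wide. Protein likeness and likeness of ratio thus did not go together in both pairs. A GTP-binding loop, searched as glycine, any 4 residues, glycine, lysine and then serine or threonine, was found 3 times in the 688 residues of GIMAP8 and 1 time in each other member.

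Reads that fall where the paralogs are identical could be counted for either gene. Windows shared with the readthrough gene *Gm28053*, which overlaps *Gimap7*, *Gimap1* and *Gimap5*, were left out of the counts that follow. Of the 50-base windows of the *Gimap5* transcript, 9.98% (190 of 1904) also occurred in another gene's transcript, that of *Gimap3*. For *Gimap3* the share was 9.83% (206 of 2096). In the last 500 bases, from which a 3′ kit would read, 0 windows of *Gimap5* and 16 of *Gimap3* were shared. *Gimap1* shared 10.7% of its windows, in part with its antisense transcript *Gimap1os*. In its last 500 bases 49 windows (9.80%) were shared, the most of any member. *Gimap4*, *Gimap6*, *Gimap7*, *Gimap8* and *Gimap9* shared 0. *Gimap9* overlaps the minus-strand long noncoding RNA gene *Gm46958*, and *Gimap7*, *Gimap1* and *Gimap5* overlap the readthrough gene *Gm28053*. None of these overlapping genes has a row in the count tables, and whether counting used strand is not given in the sources used here.

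Along the chromosome the large ratios were interleaved with small ones. The minus-strand genes *Gimap6* (chr6:48701583-48708244) and *Gimap3* (chr6:48764464-48770851) had log2 ratios of 1.86 and 2.24. The 6 plus-strand genes ranged from 0.36 to 1.33, and the highest of these was *Gimap4* (chr6:48684578-48692062). *Gimap7* (chr6:48718621-48724636), next to *Gimap6*, had a log2 ratio of 0.36, and *Gimap5* (chr6:48746197-48754200), next to *Gimap3*, 0.77. With 2 minus-strand genes, strand and gene cannot be told apart. *Gimap8* (chr6:48647186-48660875), *Gimap9* (chr6:48676121-48679116) and *Gimap1* (chr6:48739047-48743795) complete the cluster, which holds 10 RefSeq genes in all. The other two, the pseudogene *Gm44262* and *Gm46958*, are not among the rows.

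Most genes that flank the cluster had smaller ratios than most of its members. Of the 10 nearest protein-coding genes, 5 on each side, 7 passed the minimum. The ratio was at least 2 for 1 of these 7 and 0.5 or less for 0, beside 14.2% and 12.3% of all genes past the minimum. Their median log2 ratio was 0.32. The higher one was *Gpnmb*, with 14 and 28 reads. *Zfp775*, the nearest on the *Gimap8* side, had 100 reads in the control and 111 in the RV-Cre library (log2 ratio 0.32). *Tmem176b*, the nearest on the *Gimap3* side, had 233 and 380 reads (0.88, 0.64 to 1.12). The zinc finger gene *Repin1* was lower, with 348 and 162 reads (-0.92). *Lrrc61* (171 and 157 reads), *Tmem176a* (78 and 67) and *Malsu1* (578 and 642) lay between -0.04 and 0.33. *Sspo*, *Rarres2* and *Aoc1* had at most 1 read in each library.

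**Figure D4:**
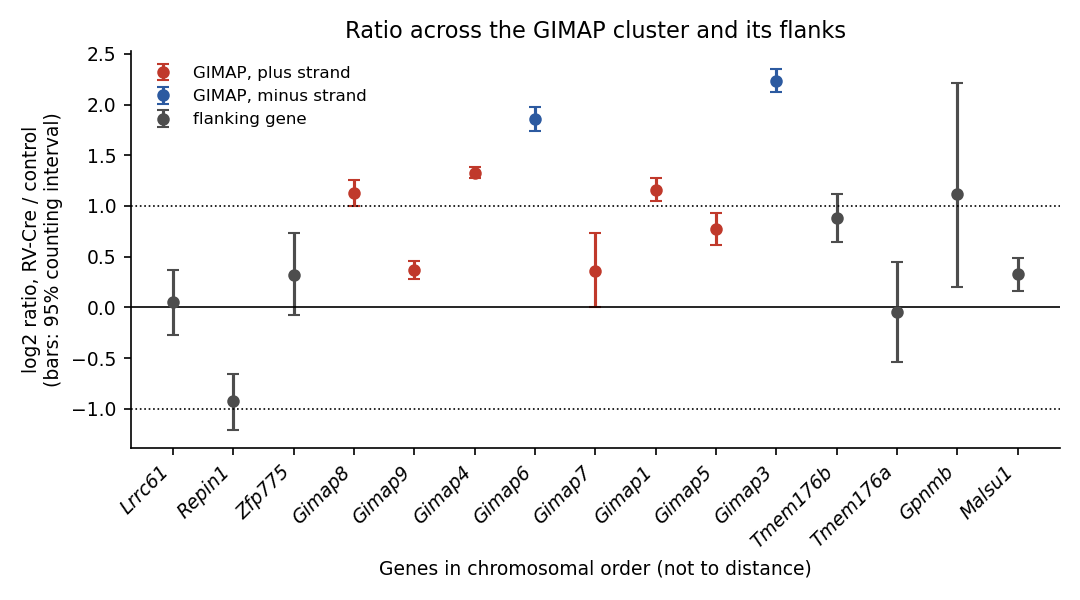
Log2 ratio of RV-Cre to control (TMM scaling) for the GIMAP genes and the flanking protein-coding genes past the minimum, in chromosomal order and not to distance. Bars are 95% counting intervals, and dotted lines mark a 2-fold ratio. The minus-strand GIMAP genes (blue) are the 2 highest at 1.86 and 2.24, the plus-strand ones (red) run from 0.36 to 1.33, and 6 of the 7 flanking genes (grey) lie below 1. Under scaling to CD3 chain genes, which lowers every value by 1.10, *Gimap5*, *Gimap7* and *Gimap9* fall below 0.

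Other gene groups were read beside the family. These lists were chosen with results of these data known, and their counts stand beside the 14.2% and 12.3% of all genes. In the 6276 better-read genes these shares were 3.74% and 7.60%. The first holds death, survival and autophagy proteins that GIMAPs have been linked to. Of 20 genes, 2 had a ratio of 2 or more and 1 a ratio of 0.5 or less, with a median log2 ratio of 0.31 (0 and 6 genes when scaled to CD3 chain genes). *Bcl2*, the main survival factor of resting T cells, had 1081 reads in the control and 2814 with RV-Cre, or 2.94 times as many (2.74 to 3.15). The autophagy gene *Map1lc3a* had 55 and 106 (2.17, 1.56 to 3.07). *Pmaip1*, which encodes the death factor NOXA, had 117 and 36, a ratio of 0.347 (0.232 to 0.508). The other death factors of the list, named after their values were seen, did not pass the threshold. Their log2 ratios were 0.93 for *Bcl2l11* (358 and 607 reads), 0.44 for *Bax* (228 and 274), 0.34 for *Bad* (484 and 545), 0.34 for *Bbc3* (193 and 217), 0.24 for *Bak1* (401 and 419) and -0.83 for *Bid* (297 and 148). The shares past the threshold, 10% higher and 5% lower, were below those of all genes. Against the better-read genes, the higher share was above 3.74% and the lower share below 7.60%. *Bcl2l1*, the survival factor of activated T cells, had 1609 and 1040 reads (0.729, 0.674 to 0.789). *Gabarapl2*, the partner of GIMAP6, had 937 and 1064 (1.28, 1.17 to 1.40), well short of the ratio of *Gimap6*. *Calm2*, 1 of the 3 calmodulin genes, had 5918 and 2928 (log2 ratio -0.84).

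Most genes of T cell quiescence and homing had, like the GIMAPs, a log2 ratio above 0 (19 of 22, beside 49.6% of all genes past the minimum), a count that depends on the scaling, since CD3 scaling lowers every log2 ratio by 1.10. A ratio of at least 2 was found for 8 of 22, and one of 0.5 or less for 0, with a median log2 ratio of 0.69 (1 and 3 genes when scaled to CD3 chain genes). *Klf2*, a quiescence factor that drives homing receptors, had 1175 and 5668 reads, a ratio of 5.44 (5.11 to 5.80), above the 4.71 of *Gimap3*. Others past the threshold were *S1pr1*, *Tcf7*, *Satb1*, *Btg1*, *Pik3ip1* and *Dgka*. The lowest were *Txnip* (609 and 315 reads, log2 ratio -0.77) and *Id3* (420 and 275, -0.44).

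Other immune GTPases were read beside the GIMAPs. Of 19 interferon-inducible IRG, GBP and Mx genes, which act in cell-autonomous defence, 16 passed the minimum, none of them an Mx gene (*Mx1* had 0 reads in both libraries and *Mx2* 8 and 0). Of these, 0 had a ratio of 2 or more and 6 a ratio of 0.5 or less, with a median log2 ratio of -0.23. *Gbp10* had 147 and 25 reads, a ratio of 0.192 (0.120 to 0.295), and *Iigp1* had 2961 and 815 (0.311, 0.287 to 0.336). The highest were *Gbp4* (200 and 259 reads, log2 ratio 0.54) and *Gbp7* (187 and 231, 0.48), both above *Gimap9* and *Gimap7* and below the other 6 GIMAPs. GBP genes are alike in sequence and reads could be split among them.

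A list of 24 T cell transcription factors was read as well. The motifs looked for in the promoters cover most of them, but not *Ikzf1*, *Ikzf3*, *Notch1* and *Rbpj*. No STAT gene was in the list. Of the 24, 22 passed the minimum. A ratio of 2 or more was found for 4 and one of 0.5 or less for 0, with a median log2 ratio of 0.28 (2 and 9 genes when scaled to CD3 chain genes). The higher ones were *Klf3*, *Klf2*, *Klf13* and *Tcf7*. *Klf3*, a repressor of the KLF family, had 113 reads in the control and 816 with RV-Cre, a ratio of 8.15 (6.69 to 10.0). The lowest were *Gabpa* (515 and 243 reads, log2 ratio -0.91) and *Cbfb*, the partner of RUNX factors (2223 and 1206, -0.71). The 18.2% of the list with a ratio of 2 or more is near the 14.2% of all genes past the minimum. It is above the 3.74% of the 6276 better-read genes, so the comparison depends on the background taken.

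Proliferation genes went the opposite way. Of 14, 11 had a ratio of 0.5 or less and 0 a ratio of 2 or more, with a median log2 ratio of -1.60. *Cdk1*, the kinase that drives mitosis, had 2971 and 397 reads, a ratio of 0.151 (0.135 to 0.167), and *Rrm2*, which makes nucleotides for DNA synthesis, had 2863 and 480 (0.189, 0.171 to 0.208). The replication helicase genes *Mcm7* (8981 and 4842 reads, log2 ratio -0.72) and *Mcm5* (4389 and 2175, -0.84) were the highest of the list. No GIMAP overlapped with the range of this list, but 81.0% of all genes past the minimum also had a ratio at or above that of *Mcm7*.

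**Figure D5:**
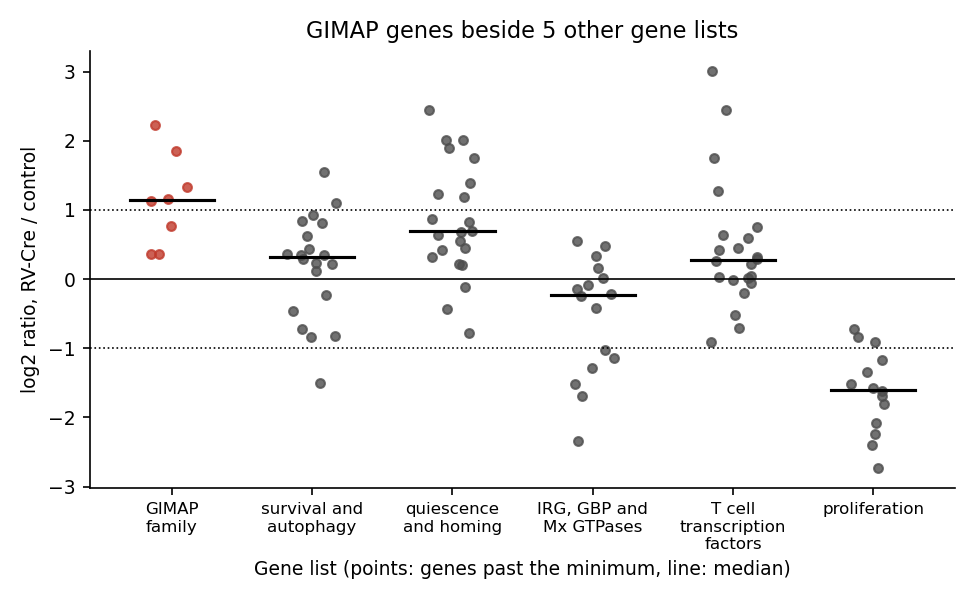
Log2 ratio of RV-Cre to control (TMM scaling) of each gene past the minimum in the GIMAP family (red) and in 5 other lists (grey). Each point is a gene, the sideways spread within a list has no meaning, solid lines are medians and dotted lines a 2-fold ratio. The medians are 1.14 for GIMAPs, 0.31 for survival and autophagy, 0.69 for quiescence and homing, -0.23 for IRG, GBP and Mx GTPases, 0.28 for transcription factors and -1.60 for proliferation. Scaling to CD3 chain genes lowers all points by 1.10, which puts *Gimap5*, *Gimap7* and *Gimap9* below 0.

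Among the 3 genes closest to the summed family in log2 normalized level over the 2 libraries were *Satb1*, a chromatin organiser of T cells, with 11088 and 22319 reads (distance 0.0955), and *Ptprc*, which encodes CD45, with 8181 and 18174 (0.454). With 2 libraries this distance reflects only a level and a ratio.

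Cell type markers moved between the libraries too. T cell markers were present (6 of 9 listed were found), with 1151 CPM in the control and 1560 in the RV-Cre library. Among them *Cd3d* had 3662 and 7475 reads and *Cd3e* 1453 and 2884, while *Cd3g* had 713 and 750, *Cd28* 4767 and 5051 and *Cd4* 1489 and 1342. *Cd5* was lower, with 3800 and 1696 reads, a ratio of 0.504 (0.475 to 0.533), so the 6 T cell markers did not move together. The summed CD3 chain genes had 5828 and 11109 reads, a ratio of 2.15 (2.08 to 2.22), which is close to that of the family. There were 1.78 GIMAP reads per CD3 chain read in the control and 2.01 with RV-Cre, a ratio of 1.13 (1.09 to 1.17). On that scale, added after seeing the data, *Gimap3* kept a log2 ratio of 1.13 and *Gimap6* of 0.75, while *Gimap8* (0.02) and *Gimap1* (0.06) were near 0. The median of all genes moved down by 1.10 with it, so the members' places among all genes were the same.

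Th17 markers summed to 152 CPM in the control and 53.1 in the RV-Cre library over 5 genes, with *Il17a* and *Il17f* each at least 2-fold lower. Summed over lists of unlike length, markers of other cells were low against those of T cells. The summed CD8 T cell genes were nearer in level to *Cd4* alone (108 and 109 CPM). Both CD8 genes were at least 2-fold higher in the RV-Cre library. Over all markers of each list, CD8 T cell genes summed to 32.2 and 69.4 CPM (2 genes), endothelial genes to 30.9 and 63.1 (5 genes), myeloid genes to 12.3 and 43.1 (8 genes), erythroid and platelet genes to 6.67 and 25.9 (5 genes), B cell genes to 3.70 and 9.51 (6 genes) and NK cell genes to 3.19 and 1.06 (4 genes). Several of these lists, like the GIMAPs, were higher in the RV-Cre library, and GIMAP genes are expressed in most lymphocytes. Of the defining markers, the B cell factor *Pax5* had 0 reads in both libraries, as did the endothelial receptor *Tek*, while the endothelial gene *Cdh5* had 2 and 0 reads. The macrophage receptor *Marco* made up most of the myeloid reads in the RV-Cre library (5 and 289 reads), and *Pecam1*, also found on T cells, most of the endothelial ones (195 and 620). The part of other cell types in the GIMAP ratios was not tested.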

How the data were processed

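RNA from sorted GFP+ control and RV-Cre-transduced Th17 cells (500 ng of total RNA each) was sequenced, with 1 library per condition. The deposited values are raw counts of reads per gene symbol, which the authors did not normalize. The submitters' processing notes list bcl2fastq 2.20.0.422, Bowtie2, bedtools and the mm10 build. The counting annotation and strand setting are not given in the sources used here. Depth was 13799264 counted reads for the control and 12305010 for RV-Cre, in 23282 rows.

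Counts were scaled with TMM factors (edgeR 4.0.16 in R 4.3.3) and were compared as log2(normalized count + 1). Library totals times the TMM factors gave size factors of 1.062 (control) and 0.941 (RV-Cre). Library totals alone gave 1.059 and 0.944. The minimum was a log2 value of 4 (15 normalized reads) in at least 1 library and the threshold a ratio of 2. With 1 library per condition no test across genes was run. Ratios carry exact Clopper-Pearson 95% intervals (scipy 1.17.1), and odds ratios exact conditional ones. Reads have no molecular identifiers, so intervals cover counting error only. The code was tested on simulated data.

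The members and gene lists were chosen with earlier results of these data known. Named genes were all members, the genes within and the 5 protein-coding genes beside the cluster, the 2 highest and 2 lowest of each list, *Bcl2*, *Bcl2l1*, *Gabarapl2* and the 3 genes nearest to the family sum. Values of a few genes that this rule or the marker lists name are not reported here. The other genes at least 2-fold higher in the quiescence list and the markers were named after their values were seen. Promoters came from RefSeq (GRCm38.p6), and transcripts from GENCODE M21, translated and aligned with Biopython 1.88. All 8 members matched by symbol. Alternatives were other scalings (DESeq2 1.42.0 size factors among them), pseudocounts, minimums, thresholds and family totals.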

Additional observations from a re-analysis of the deposited data

How the results depend on the processing

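The ratios of the 8 members kept their direction under 9 settings of scaling and pseudocount, TMM with a pseudocount of 1 among them, with *Gimap3* between 2.22 and 2.34 on the log2 scale, *Gimap6* between 1.84 and 1.96 and *Gimap9* between 0.35 and 0.47. Values outside the counting interval came from upper quartile factors (*Gimap9* 0.46, *Gimap4* 1.43), the library total without *Rn45s* (0.46 and 1.42) and quantile normalization (*Gimap9* 0.47, *Gimap4* 1.47, *Gimap1* 1.28). *Gapdh*, lower itself in the RV-Cre library (956 and 634 reads), raises every log2 ratio by 0.42 when used for scaling: *Gimap8* 1.54, *Gimap9* 0.78, *Gimap4* 1.75, *Gimap6* 2.28, *Gimap7* 0.78, *Gimap1* 1.58, *Gimap5* 1.19 and *Gimap3* 2.65, with 2960 genes of all higher and 780 lower (1720 and 1491 with TMM). Scaling to *Cd3d*, *Cd3e* and *Cd3g*, chosen after seeing the data, lowers each by 1.10: *Gimap9* -0.74, *Gimap7* -0.74 and *Gimap5* -0.33 turned negative, *Gimap8* was 0.022, *Gimap4* 0.22, *Gimap6* 0.75, *Gimap1* 0.056 and *Gimap3* 1.13, with 1 member at least 2-fold higher and 555 genes of all higher against 6936 lower.

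A fold threshold of 3 left 2 members (all genes 1008 and 669), and one of 1.5 gave 2847 and 2777 genes. With no minimum, 3265 genes were higher and 2441 lower. The count of higher genes was 758 with the minimum in both libraries and 734 with a log2 minimum of 6. Without *Gimap3* and *Gimap5* in the family total, the odds ratio of *Gimap4* was 1.23. Without *Gimap4*, that of *Gimap9* was 0.448 and that of *Gimap3* 2.35.

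In the other lists, 125 of 150 counts stayed within 1.5 times. For survival and autophagy, the higher count was 6 with *Gapdh*, 0 with CD3, 1 with a pseudocount of 10, 6 at 1.5-fold and 0 at 3-fold, and the lower count 6 with CD3, 4 at 1.5-fold and 0 at 3-fold. For quiescence and homing, the higher count was 13 with *Gapdh*, 1 with CD3, 13 at 1.5-fold and 5 at 3-fold, and the lower count 3 with CD3 and 1 at 1.5-fold. For the IRG, GBP and Mx genes, the lower count was 3 with *Gapdh*, 12 with CD3 and 2 at 3-fold, and the higher count 1 with no minimum. For transcription factors, the higher count was 7 with *Gapdh*, 2 with CD3 and 7 at 1.5-fold, and the lower count 9 with CD3, 1 with no minimum and 2 at 1.5-fold. For proliferation, the lower count was 7 at 3-fold.

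The libraries carry no replicate to leave out or to pair. Depth limits the ratio of *Gimap7*, whose 99% interval includes 1, and that of *Gimap8*, whose 99% interval includes 2.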
